A study of Mus musculus with 12 samples.

Results

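The BCL2 family decides, at the outer mitochondrial membrane, whether a stressed cell dies by apoptosis. Guardians such as BCL2, BCL-XL and MCL1 hold back the pore formers BAX and BAK, and the BH3-only proteins relay damage or growth factor loss by neutralising the guardians or by triggering BAX and BAK directly. Once BAX or BAK forms pores, cytochrome c leaks out and caspases are switched on. Loss of smooth muscle cells by apoptosis is a known feature of the dilating aortic wall, and the same proteins set the life span of the leukocytes that enter it.

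The genes described here are 10 members of this family, of 24341 named genes in the deposited count table: the pore formers Bak1 and Bax, the guardians Bcl2, Bcl2l1 and Mcl1, and the BH3-only genes Bid, Bcl2l11, Bad, Bbc3 and Pmaip1. The list was chosen by picking family genes around Bak1 with values of these same libraries known, so that Bak1 is described below with no test in any comparison. Which comparison pointed to Bak1 is not recorded. Each gene was represented by its RefSeq accession with the highest mean level. Of the 10 members, 8 passed the filter on low counts, and Bcl2l11 and Bad did not.

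RNA was sequenced from aortas of male C57BL/6J mice, 10 weeks old, in 3 groups of 4. In the PPE week 2 group the infrarenal segment of the aorta was filled with pancreatic elastase of the pig (PPE), which breaks down the elastic fibres of the wall so that the vessel dilates, and the tissue was taken at day 14. The PPE week 1 group received the same enzyme and was harvested at day 7. The saline group was infused with saline and also harvested at day 7, so that PPE week 2 and saline differ in time after surgery as well as in the enzyme. The labels name no engineered allele. What part of the aorta was taken beyond the infused segment is not given, and each library came from a different mouse.

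The libraries held 8343313 to 12269131 counts each, of which a precursor of ribosomal RNA took 19.5 to 22.1% at PPE week 2, 21.0 to 34.6% at PPE week 1 and 36.2 to 49.9% in saline. Levels are given in CPM, a gene's count scaled to a library of 1000000 counts with TMM factors. Aortic tissue was checked by its markers: all 8 smooth muscle markers were measured, and their summed level was 4274 to 9593 CPM at PPE week 2, 1570 to 2809 CPM at PPE week 1 and 4582 to 6134 CPM in saline. The endothelial markers Pecam1 and Tek, the macrophage marker Itgam, the neutrophil marker S100a9, the NK cell marker Klrb1c and the haemoglobin genes Hba-a1 and Hbb-bs were listed at 0 in all libraries. Genes with several overlapping RefSeq accessions appeared to be undercounted in the deposited table, and a 0 there does not show absence.

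Bak1 lies at chr17:27019812-27028627 of mm10 (minus strand, 6 exons) and encodes BAK, the pore former that sits in the mitochondrial membrane of healthy cells. Bax, at chr7:45461695-45466903 (minus strand), encodes the pore former that moves there from the cytosol. Bid, at chr6:120893119-120917062 (minus strand), encodes the BH3-only protein that caspase 8 cleaves downstream of death receptors. The promoters of these 3 genes are printed because their mean levels were each higher at PPE week 1 than in saline, and because they differ in the motifs found. Each runs from 250 bases before the annotated start to 50 bases after it, read 5′ to 3′ on the gene's strand from RefSeq's table for GRCm38.p6. That start need not be the outer end of the gene span given above. For Bid it lies inside the span, so that most of the printed window is within the span. The Bid window ends at 120917074, just past the end of the span at 120917062. Capitals mark GC boxes (GGGCGG on either strand) and, in Bax, also 1 match to the p53 half-site consensus, which is the first capital run.
Bak1 promoter, chr17:27028578-27028877, minus strand: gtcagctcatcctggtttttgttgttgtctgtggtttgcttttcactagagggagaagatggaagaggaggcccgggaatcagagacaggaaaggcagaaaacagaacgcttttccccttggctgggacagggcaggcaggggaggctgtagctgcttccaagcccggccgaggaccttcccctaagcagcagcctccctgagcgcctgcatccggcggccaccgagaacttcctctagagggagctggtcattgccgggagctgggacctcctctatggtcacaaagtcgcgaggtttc
Bax promoter, chr7:45466849-45467148, minus strand: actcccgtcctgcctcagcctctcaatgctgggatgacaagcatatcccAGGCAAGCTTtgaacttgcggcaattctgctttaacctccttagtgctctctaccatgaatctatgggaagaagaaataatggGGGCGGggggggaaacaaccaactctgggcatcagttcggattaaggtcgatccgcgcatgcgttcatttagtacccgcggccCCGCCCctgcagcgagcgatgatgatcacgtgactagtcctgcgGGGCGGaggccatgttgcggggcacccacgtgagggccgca
Bid promoter, chr6:120916775-120917074, minus strand: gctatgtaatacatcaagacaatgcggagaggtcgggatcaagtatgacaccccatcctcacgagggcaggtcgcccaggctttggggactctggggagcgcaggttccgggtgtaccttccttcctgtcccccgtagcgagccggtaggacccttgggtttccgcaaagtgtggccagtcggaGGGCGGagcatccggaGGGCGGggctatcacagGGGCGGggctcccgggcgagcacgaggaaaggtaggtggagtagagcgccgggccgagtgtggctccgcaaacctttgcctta

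The Bak1 window held none of the 6 motifs searched, had 58.3% G and C and 11 CpG dinucleotides. The Bax window held 3 GC boxes and the p53 half-site in 57.3% G and C with 19 CpG. The Bid window held 3 GC boxes in 63.3% G and C with 22 CpG. The search covered both strands for the GC box, the CCAAT box (CCAAT), the TATA box (TATAAA), the cAMP response element (TGACGTCA), the p53 half-site and the interferon-stimulated response element. Among all 32851 RefSeq promoters of 300 bases, 35.7% held a GC box, 37.4% a CCAAT box, 13.6% a TATA box, 1.79% the cAMP response element, 8.36% a p53 half-site and 1.92% the interferon element. Of the 10 members, 9 were matched in the table, with 15 promoters in all, and Pmaip1 is named only. A GC box was found in 10 of the 15 promoters, a CCAAT box in 4 and the p53 half-site in 1, while the other 3 motifs were found in 0. Since 4 members have more than 1 promoter, some of which overlap, the 15 are not separate genes: the GC box was found in 7 of the 9 members. No match means only that these letters are not in the window.

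Bak1 was the only 1 of the 10 members whose libraries did not overlap between any pair of groups. The list was picked around Bak1 with these values known, so that this is a description. Over all 12756 features tested, 12.1% had every PPE week 1 library above every saline library. The share without overlap between all pairs of groups was not counted. The level of Bak1 was 46.0, 49.1, 57.4 and 57.9 CPM at PPE week 2, 100.4, 97.5, 81.3 and 90.0 CPM at PPE week 1, and 45.6, 36.2, 37.1 and 38.4 CPM in saline. Every PPE week 1 library lay above every other library, and the lowest PPE week 2 library lay just above the highest saline library. The means were 52.6 ± 5.97 CPM at PPE week 2, 92.3 ± 8.57 CPM at PPE week 1 and 39.3 ± 4.28 CPM in saline (SD, n = 4 each). The fitted log2 fold change was 1.23 ± 0.16 (SE) at PPE week 1 relative to saline, a 2.34-fold higher level, 0.42 ± 0.16 at PPE week 2 relative to saline and -0.81 ± 0.15 between PPE week 2 and PPE week 1. In the authors' deposited table the log2 fold change of Bak1 was 1.18 at week 1 and 0.39 at week 2.

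Within each group Bak1 varied little, with a coefficient of variation of 11.4% at PPE week 2, 9.29% at PPE week 1 and 10.9% in saline. Its counts summed to 2465, 3964 and 1348 in the same order of groups. Of its 2387 exonic bases, 614 are shared with Ggnbp1 on the opposite strand, and the library kit does not record strand. The 2 accessions of Ggnbp1 in the table held 83 and 59 counts over all libraries, against 7777 for Bak1.

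**Figure D1:**
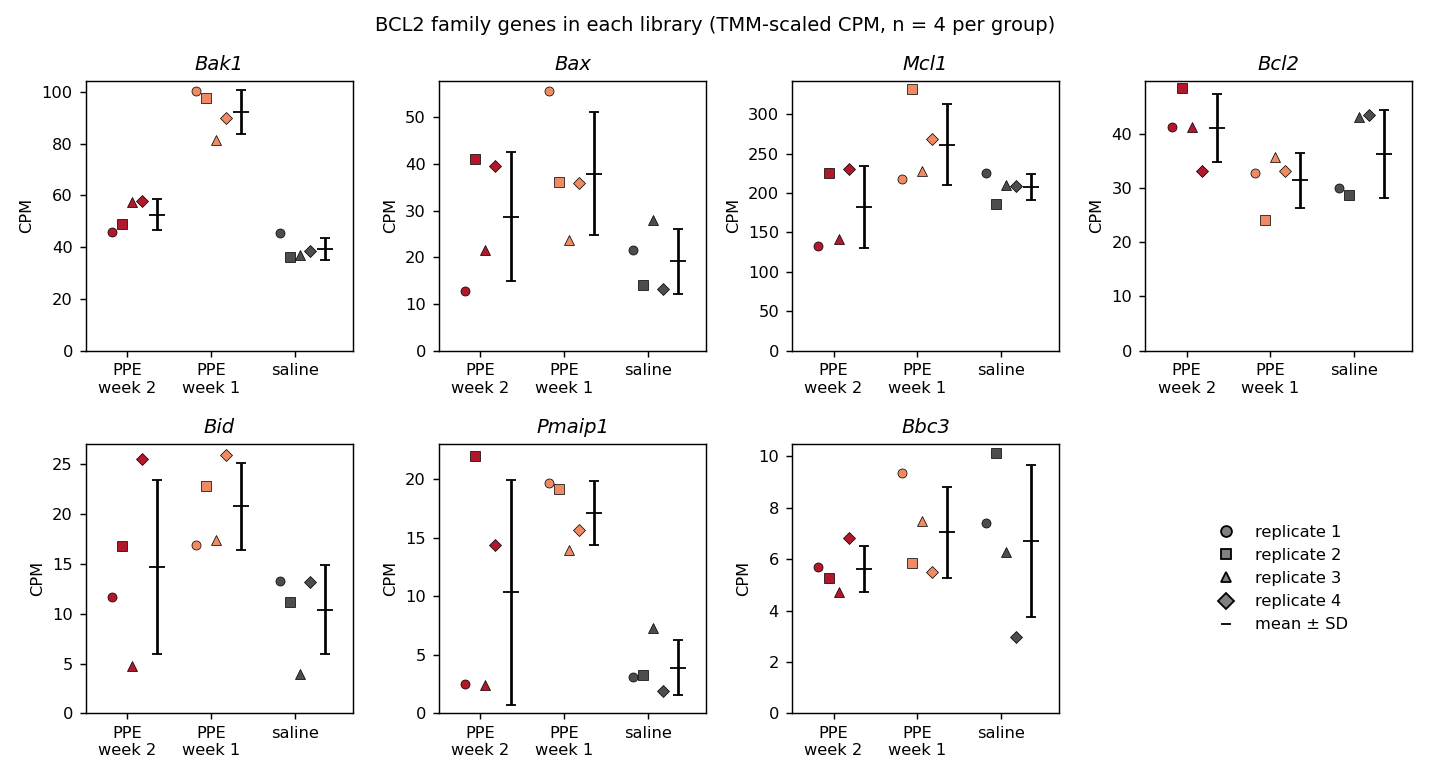
Levels of 7 BCL2 family genes in each library, in TMM-scaled CPM on a linear axis from 0, for PPE week 2, PPE week 1 and saline. Symbols are single mice and the bars are mean ± SD (n = 4); Bak1 separates PPE week 1, at 81.3 to 100.4 CPM, from all other libraries, while Bax, Bid and Pmaip1 spread widely at PPE week 2.

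Across the 7 tested members other than Bak1, edgeR's quasi-likelihood test called 0 at an adjusted p under 0.05 in each of the 3 comparisons. Over all 12756 features tested, 7.89% were called at PPE week 1 relative to saline, 2.65% at PPE week 2 relative to saline and 6.59% between PPE week 2 and PPE week 1. At an unadjusted p under 0.05 the count of members was 3, 1 and 1 in that order of comparisons. DESeq2 called 1, 0 and 0 of the 7, with 3, 1 and 1 at an unadjusted p under 0.05, and limma-voom called 0, 0 and 0, with 3, 0 and 2. Over all features DESeq2 called 832 higher and 755 lower, 410 and 335, and 812 and 651 in the same order. For edgeR these calls were 508 and 499, 166 and 172, and 481 and 360. For PPE week 1 against saline 6 of the 7 members were above 0, with a median log2 fold change of 0.98 beside 0.0027 over all features, of which 50.2% were above 0. For PPE week 2 against saline 5 of the 7 were above 0, with a median of 0.49 beside 0.050 over all features. The counts and medians against saline include Bcl2l1, which passed the filter through its PPE libraries, with 8 counts in all of saline. Its sign against saline was therefore favoured by the filter. With only the 8 libraries compared it did not pass. Then 5 of 6 members were above 0 at PPE week 1 and 4 of 6 at PPE week 2, relative to saline. For PPE week 2 against PPE week 1 only 1 of the 7, Bcl2, was above 0, with a median of -0.40 beside 0.019 over all features. When libraries were scaled by size only, which also moved the median of all features above 0 (to 0.28, 0.54 and 0.23), 7, 7 and 2 of the 7 were above 0. These comparisons share libraries with each other, so that their values are not independent.

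**Figure D2:**
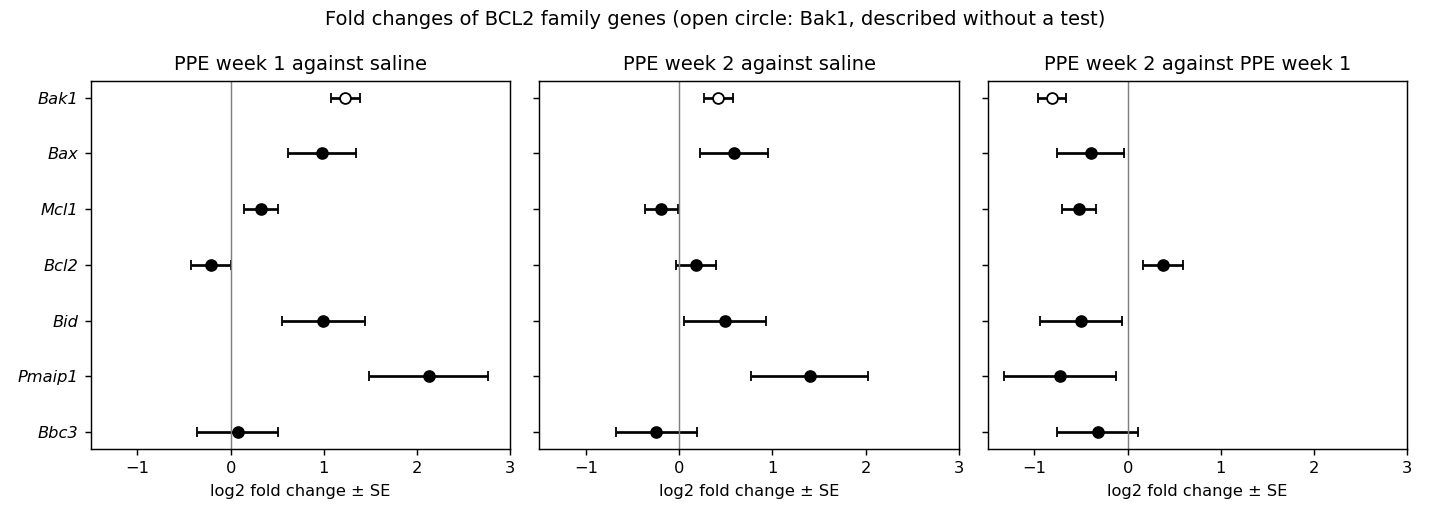
Log2 fold changes ± SE of 7 BCL2 family genes in the 3 comparisons, from the edgeR fit to all 12 libraries; the open circle is Bak1, which is described without a test. Pmaip1 had the largest value for PPE week 1 against saline, 2.13 ± 0.64, and Bcl2 was the only gene above 0 for PPE week 2 against PPE week 1.

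Bax, the other pore former, was less even between mice than Bak1. Its level was 12.9, 41.1, 21.5 and 39.6 CPM at PPE week 2, 55.6, 36.2, 23.8 and 36.0 CPM at PPE week 1, and 21.5, 14.0, 28.0 and 13.2 CPM in saline. The third PPE week 1 library lay below the third saline library, so that the groups overlapped, and at PPE week 2 replicates 2 and 4 were above all saline libraries while replicate 1 was below them. The log2 fold change was 0.98 ± 0.37 for PPE week 1 against saline, with an edgeR adjusted p of 0.118, and 0.58 ± 0.36 for PPE week 2 against saline, with an adjusted p of 0.462. Between PPE week 2 and PPE week 1 it was -0.40 ± 0.36 (edgeR adjusted p = 0.608). The PPE week 1 difference passed the threshold with only the 8 libraries compared (edgeR adjusted p = 0.0297), with libraries scaled by size only (0.0439) and without PPE week 2 replicate 1 (0.0494). Of the 867 bases of the Bax accession, 192 are shared with Gm45808 on the same strand, which had no row in the count table.

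Mcl1 (chr3:95656944-95663179) encodes a short-lived guardian that many leukocytes, neutrophils above all, depend on. Its level was 133, 225, 142 and 230 CPM at PPE week 2, 218, 332, 228 and 268 CPM at PPE week 1, and 226, 186, 211 and 209 CPM in saline. The saline libraries lay close together, whereas at PPE week 2 replicates 1 and 3 lay below every saline library. The log2 fold change was 0.33 ± 0.18 for PPE week 1 against saline (edgeR adjusted p = 0.318) and -0.19 ± 0.18 for PPE week 2 against saline (edgeR adjusted p = 0.678). For PPE week 2 against PPE week 1 it was -0.52 ± 0.18, with an unadjusted p of 0.0111 and an adjusted p of 0.101 by edgeR. Without PPE week 2 replicate 4 that value was -0.66 with an adjusted p of 0.0378 by edgeR, past the threshold.

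Bcl2 (chr1:106538176-106714290), the founding guardian of the family, had overlapping levels in all groups. It had 41.1, 48.4, 41.2 and 33.2 CPM at PPE week 2, 32.8, 24.0, 35.6 and 33.1 CPM at PPE week 1, and 29.9, 28.6, 43.1 and 43.5 CPM in saline. The lowest library was at PPE week 1 and the highest at PPE week 2, with saline libraries between them. The edgeR log2 fold change was -0.21 ± 0.22 for PPE week 1 against saline (adjusted p = 0.665), 0.18 ± 0.21 for PPE week 2 against saline (adjusted p = 0.756) and 0.38 ± 0.21 between PPE week 2 and PPE week 1 (adjusted p = 0.339). A length of 558 bases of its accession is shared with D630008O14Rik on the opposite strand.

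Pmaip1 (chr18:66458604-66465558) encodes NOXA, the BH3-only protein that neutralises MCL1, and it had the largest fold changes against saline, in both PPE groups, among the members with reads in every library. It had 2.52, 22.0, 2.45 and 14.4 CPM at PPE week 2, 19.6, 19.1, 14.0 and 15.7 CPM at PPE week 1, and 3.13, 3.28, 7.32 and 1.94 CPM in saline. All 4 PPE week 1 libraries lay above all 4 saline libraries. At PPE week 2 replicates 2 and 4 were in the PPE week 1 range or above it, while replicates 1 and 3 were in the saline range.

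For PPE week 1 against saline the Pmaip1 log2 fold change was 2.13 ± 0.64, with an unadjusted p of 0.0043 and an adjusted p of 0.0525 by edgeR, just short of the threshold. It passed without saline replicate 3 (edgeR adjusted p = 0.0454) and without PPE week 2 replicate 1 (0.0184), replicate 2 (0.0281) or replicate 3 (0.0210), each left out in turn. It also passed with only the 8 libraries compared (0.0014), with scaling by size only (0.0266) and with halved counts (0.0447) by edgeR. DESeq2 gave an adjusted p of 0.0072 for the same difference, but on simulated counts it made more false calls than its threshold allows. Those counts had the same spread for every gene, unlike the data, so they cannot decide on this call. For PPE week 2 against saline the edgeR value was 1.40 ± 0.63 (adjusted p = 0.272), and for PPE week 2 against PPE week 1 it was -0.73 ± 0.60 (adjusted p = 0.561).

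Bid followed a similar course at a lower fold. It had 11.7, 16.8, 4.73 and 25.5 CPM at PPE week 2, 16.9, 22.8, 17.4 and 25.9 CPM at PPE week 1, and 13.3, 11.2, 3.92 and 13.2 CPM in saline. All PPE week 1 libraries lay above all saline libraries, and the PPE week 2 libraries spanned nearly the range of both. Besides Bak1, Bid and Pmaip1 were the 2 members of the 7 tested with every PPE week 1 library above every saline library. Over all 12756 features tested, 12.1% had every PPE week 1 library above every saline library. The edgeR log2 fold change of Bid was 0.99 ± 0.44 for PPE week 1 against saline (adjusted p = 0.198), 0.49 ± 0.44 for PPE week 2 against saline (adjusted p = 0.644) and -0.50 ± 0.44 between PPE week 2 and PPE week 1 (adjusted p = 0.588).

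Bbc3 (chr7:16308398-16318334) encodes PUMA, a BH3-only protein known as a p53 target, and it was low in all groups. It had 5.69, 5.28, 4.73 and 6.84 CPM at PPE week 2, 9.36, 5.86, 7.48 and 5.49 CPM at PPE week 1, and 7.40, 10.1, 6.27 and 2.98 CPM in saline. The saline libraries alone spanned the whole range of the others. The edgeR log2 fold change was 0.08 ± 0.43 for PPE week 1 against saline (adjusted p = 0.953), -0.25 ± 0.43 for PPE week 2 against saline (adjusted p = 0.842) and -0.32 ± 0.43 between PPE week 2 and PPE week 1 (adjusted p = 0.755).

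In the authors' deposited table, which compares each PPE week with the control group, Pmaip1 had a log2 fold change of 1.88 at week 1 with an adjusted p of 3.21e-06. Bax had 0.90 with an adjusted p of 0.0132 and Bid 0.88 with an adjusted p of 0.043 in the same authors' deposited table. Mcl1 (0.31, adjusted p = 0.147), Bcl2 (-0.22, adjusted p = 0.596) and Bbc3 (0.05, adjusted p = 0.959) did not pass there. At week 2 none of Bax, Bcl2, Mcl1, Bid, Bbc3 and Pmaip1 had an adjusted p under 0.05 in the authors' deposited table. Pmaip1 had a log2 fold change of 0.73 there, with an adjusted p of 0.332. Bcl2l1, Bcl2l11 and Bad had no week 2 entry, and Bak1 is left out as it was not tested here. The submitters' processing notes name DESeq2 without its settings. A DESeq2 fit made here to the deposited counts of all 12 libraries called Pmaip1 at PPE week 1 but gave adjusted p-values of 0.0636 for Bax and 0.148 for Bid.

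For 3 members the deposited counts give little to compare. Bcl2l1 (chr2:152758732-152833803), which encodes the guardian BCL-XL, had 28, 0, 2 and 14 counts at PPE week 2, 15, 1, 18 and 13 counts at PPE week 1, and 0, 0, 8 and 0 counts in saline. These counts come from an accession with 130 bases of its own, since reads shared by its isoforms appear not to have been counted. The edgeR log2 fold change was 1.96 ± 1.64 for PPE week 1 against saline (adjusted p = 0.568), 1.84 ± 1.64 for PPE week 2 against saline (adjusted p = 0.644) and -0.13 ± 1.52 between PPE week 2 and PPE week 1 (adjusted p = 0.979).

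Bcl2l11 (chr2:128126038-128162547), which encodes BIM, the BH3-only protein that answers growth factor loss, had 9, 10, 0 and 2 counts at PPE week 2, 4, 4, 4 and 5 counts at PPE week 1, and 3, 0, 0 and 0 counts in saline. Bad (chr19:6941861-6951905), whose protein is held inactive by survival kinases, had 0, 1, 0 and 12 counts at PPE week 2, 1, 4, 4 and 0 counts at PPE week 1, and 1, 4, 0 and 1 counts in saline, from 124 bases of its own. Neither passed the filter, and no difference could be tested at this depth.

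Divided by the length of each accession's own bases, levels can be set roughly side by side between genes. Own bases leave out only those shared with other isoforms of the same gene. The 614 bases that Bak1 shares with Ggnbp1 and the 192 that Bax shares with Gm45808 stayed in. Either gene is understated if reads there were not counted. The order of Bax and Bak1 below can depend on this choice, and levels without these bases are not given. At PPE week 1 Mcl1 had 76.5 ± 15.1 CPM per kb, Bax 43.7 ± 15.2, Bak1 38.7 ± 3.59, Bid 9.48 ± 1.99, Pmaip1 6.27 ± 1.00, Bcl2 4.97 ± 0.80 and Bbc3 3.89 ± 0.98 CPM per kb (SD, n = 4). In saline the values were 60.8 ± 4.78 CPM per kb for Mcl1, 22.1 ± 8.02 for Bax, 16.5 ± 1.79 for Bak1, 5.75 ± 1.29 for Bcl2, 4.75 ± 2.03 for Bid, 3.69 ± 1.63 for Bbc3 and 1.44 ± 0.86 for Pmaip1. Mcl1 stood first in all groups, with 53.4 ± 15.3 CPM per kb at PPE week 2, followed by Bax at 33.2 ± 15.9 and Bak1 at 22.0 ± 2.5. Bax and Bak1 differed by less than the spread of Bax in each group. In saline Bcl2 and Bid, and likewise Bid and Bbc3, differed by less than their SDs. Pmaip1 was last of the 7 in saline but stood above Bcl2 and Bbc3 at PPE week 1, there by more than the SD of each.

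Ratios of counts within a library need no scaling between libraries, and they describe RNA, not protein. They were not corrected for length, and Bcl2 has 6316 own bases against 867 for Bax and 2387 for Bak1. They can therefore be compared between groups, but do not show which of 2 genes had more RNA. The ratio of Bak1 to Bcl2 counts was 1.32 ± 0.33 at PPE week 2, 3.03 ± 0.76 at PPE week 1 and 1.13 ± 0.32 in saline (SD, n = 4). The lowest PPE week 1 ratio, 2.28, was above the highest PPE week 2 ratio, 1.75, and the highest saline ratio, 1.52. Since the list was picked around Bak1, this is a description.

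The ratio of Bak1 to Mcl1 counts was 0.305 ± 0.0858 at PPE week 2, 0.362 ± 0.0708 at PPE week 1 and 0.189 ± 0.0115 in saline. Here both PPE groups lay wholly above saline, whose highest ratio was 0.202, while the lowest was 0.218 at PPE week 2 and 0.294 at PPE week 1. The ratio of Bax to Bcl2 counts, 0.719 ± 0.385 at PPE week 2, 1.24 ± 0.459 at PPE week 1 and 0.540 ± 0.184 in saline, overlapped between all groups. The ratio of Pmaip1 to Mcl1 counts was 0.0491 ± 0.0385 at PPE week 2, 0.0669 ± 0.0155 at PPE week 1 and 0.0189 ± 0.0111 in saline, with all PPE week 1 libraries above all saline libraries.

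**Figure D3:**
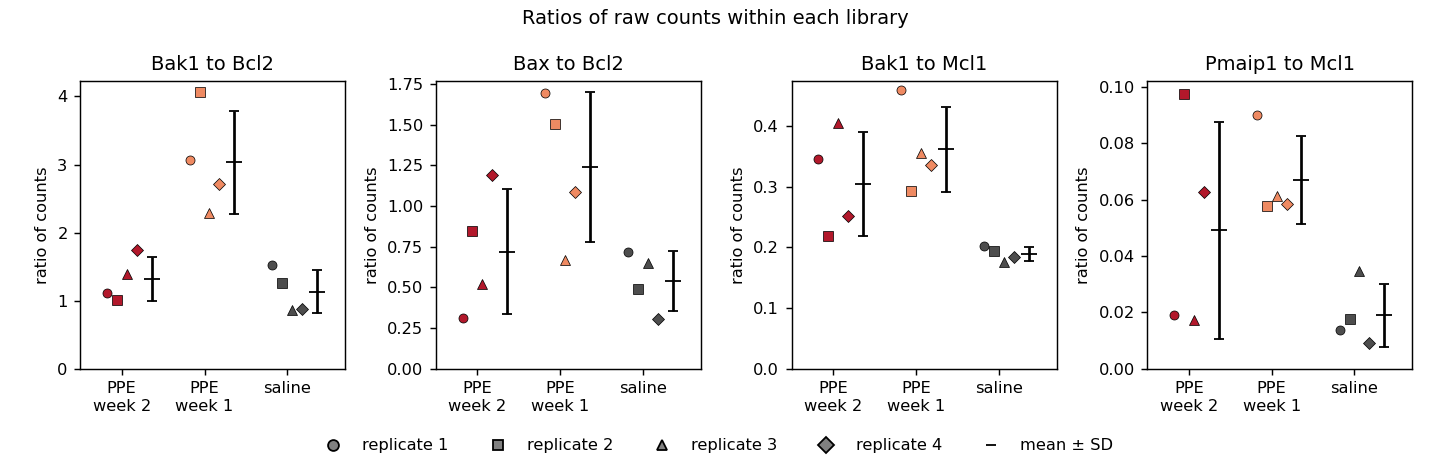
Ratios of raw counts of a death-promoting gene to a guardian gene within each library, on linear axes from 0, for PPE week 2, PPE week 1 and saline. Symbols are single mice and bars are mean ± SD (n = 4); the Bak1 to Bcl2 ratio at PPE week 1, 2.28 to 4.06, stands above all other libraries.

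The PPE week 2 group was not uniform, and 4 of the 8 members that passed the filter shared the same split between mice. This split was picked from these same values, and how many of all features share it was not counted. Replicates 2 and 4 were higher than replicates 1 and 3 in Bax, Mcl1, Bid and Pmaip1, but not in Bak1, Bcl2, Bbc3 or Bcl2l1. Summed leukocyte markers split the same way, and summed markers of fat cells (adipocytes) and of fibroblasts the opposite way. Adipocyte markers summed to 2825, 181, 1105 and 852 CPM at PPE week 2, with 290 to 567 CPM at PPE week 1 and 636 to 1851 CPM in saline. Fibroblast markers summed to 49519, 39071, 56205 and 38077 CPM at PPE week 2, with 51107 to 66892 CPM at PPE week 1 and 42803 to 55321 CPM in saline. Most of that sum came from Col1a1 and Col3a1, with means of 24208 and 20384 CPM at PPE week 2. The 12 macrophage and monocyte markers summed to 1196, 2754, 1158 and 3029 CPM at PPE week 2, with 3790 to 4841 CPM at PPE week 1 and 2007 to 2381 CPM in saline. Of the 12 T and NK cell markers 11 had a row in the count table, and these summed to 23.4, 149.6, 25.8 and 118.7 CPM at PPE week 2, with 133.3 to 191.9 CPM at PPE week 1 and 20.9 to 43.2 CPM in saline. Neutrophil markers, 8 in all, summed to 4.57, 29.4, 4.03 and 30.0 CPM at PPE week 2, 60.2 to 181.2 CPM at PPE week 1 and 11.1 to 26.8 CPM in saline.

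For PPE week 1 against saline edgeR called 3 of 10 tested macrophage and monocyte markers and 3 of 8 tested T and NK cell markers higher. It called 5 of 8 smooth muscle markers lower, with a median log2 fold change of -1.68, and likewise 5 of 8 fibroblast markers, with a median of -0.61. The other 3 fibroblast markers were above 0 and not called. Among them were Col1a1 (0.40 ± 0.14) and Col3a1 (0.13 ± 0.13), which make up most of the fibroblast sum. The 5 tested neutrophil markers had a median log2 fold change of 2.61 and did not pass the edgeR test. The aorta was sequenced whole, and a change in the number of cells of a type cannot be told apart from a change in RNA per cell. The part that the number of leukocytes, adipocytes or other cells plays in the levels of the members was not tested.

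**Figure D4:**
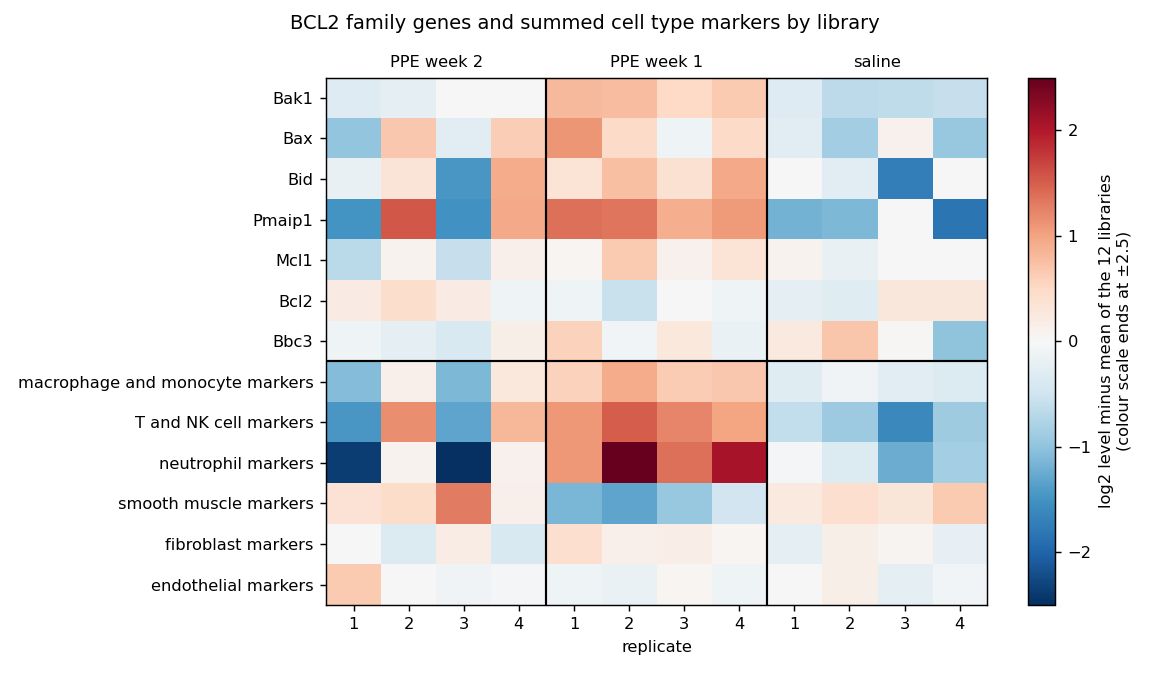
Log2 level of 7 BCL2 family genes and of 6 summed marker lists in each of the 12 libraries, after subtracting each row's mean over the libraries; columns are replicates 1 to 4 of PPE week 2, PPE week 1 and saline. Red is above and blue below the mean, the colour scale ends at 2.5 either way, and PPE week 2 replicates 2 and 4 are redder than replicates 1 and 3 for Bax, Bid, Pmaip1, Mcl1 and the 3 leukocyte lists.

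Over the 12 libraries Bax and Pmaip1 had the closest pair of profiles among the members, with a Pearson r of 0.89 and a Spearman rho of 0.90 of log2 CPM. Bak1 had an r of 0.70 with Pmaip1 and 0.67 with Bax, and Mcl1 an r of 0.62 with Bid at a rho of 0.86. Bcl2 had a negative r with 6 of the other 7 tested members, of -0.54 with Bbc3, -0.53 with Mcl1, -0.46 with Bid, -0.45 with Bak1, -0.22 with Pmaip1 and -0.17 with Bax, and an r of 0.10 with Bcl2l1. Against the marker sums, Mcl1 had an r of 0.91 with neutrophil and 0.90 with macrophage and monocyte markers. Pmaip1 had 0.88 and Bid 0.82 with T and NK cell markers. With adipocyte markers Pmaip1 had an r of -0.81 and Bax of -0.71. Bak1 had 0.79 with T and NK cell markers, -0.80 with smooth muscle markers and -0.31 with the share of the ribosomal RNA precursor. All of these points share the 3 groups and the scaling of their library, and they are given as descriptions (n = 12).

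The 5 genes outside the list whose log2 CPM was most like that of Bak1 over the 12 libraries were Ftl1 (r = 0.92), Unc13d (0.92), Helz2 (0.92), Gpc1 (0.91) and F630028O10Rik (0.91). Ftl1 encodes the light chain of ferritin, the iron store, and had mean levels of 443 CPM at PPE week 2, 667 CPM at PPE week 1 and 335 CPM in saline. Unc13d, a gene of cytotoxic granule release, had 20.0, 35.3 and 12.8 CPM in that order of groups, and the helicase gene Helz2 had 157, 336 and 92.8 CPM. Among the 5 most opposite were Cytl1 (r = -0.96), Lgalsl (-0.94), Fmo2 (-0.94) and Mosmo (-0.93). Cytl1, a cytokine-like gene, averaged 36.2 CPM at PPE week 2, 7.51 CPM at PPE week 1 and 61.8 CPM in saline.

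The rest of the pathway was read from fixed lists, in which few genes passed the test. With the share of the ribosomal RNA precursor as a covariate, the 7 calls given below were all lost, with edgeR adjusted p-values of 0.0533 to 0.853. Most calls over all features were lost too. For PPE week 1 against saline 23 were called higher and 59 lower, against 508 and 499 without the covariate. For PPE week 2 against saline it was 0 and 0 against 166 and 172. Between the PPE weeks it was 54 and 15 against 481 and 360. For PPE week 1 against saline 0 of 11 tested other BCL2 family genes were higher and 1 was lower by edgeR, with a median log2 fold change of 0.11. The gene that fell was Bcl2l2, which encodes the guardian BCL-W: it averaged 39.5 ± 5.15 CPM at PPE week 1 and 65.4 ± 6.87 CPM in saline, a log2 fold change of -0.73 ± 0.18 (edgeR adjusted p = 0.0221, n = 4 each). That call was lost on leaving out replicate 2 or 3 of saline, or replicate 1, 2 or 3 of PPE week 1, with adjusted p-values of 0.0568 to 0.0772 by edgeR. DESeq2 called 3 and limma-voom 1 of the 11 there. At PPE week 2 edgeR called 0 of the 11 relative to saline (1 at an unadjusted p under 0.05) and 0 relative to PPE week 1 (2 at an unadjusted p under 0.05), with medians of 0.53 and -0.11, and DESeq2 and limma-voom called 0 in both.

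Of the other family genes, Bok, a pore former like BAX and BAK, averaged 10.3 ± 1.52 CPM at PPE week 1 and 4.21 ± 3.09 CPM in saline (edgeR log2 fold change 1.30 ± 0.47, adjusted p = 0.109). Bcl2a1b, a guardian gene of leukocytes, averaged 33.1 ± 7.85 CPM at PPE week 1 and 12.2 ± 5.79 CPM in saline (edgeR log2 fold change 1.44 ± 0.55, adjusted p = 0.139). It has near-identical copies, and its level is uncertain. Bmf, a BH3-only gene, had 62 counts in its best-counted accession and was not tested.

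Downstream of the mitochondrion, 0 of the 9 tested genes of the apoptosome and caspase list passed the edgeR test in any comparison, as with DESeq2 and limma-voom, and 1, 1 and 0 had an unadjusted p under 0.05. The list's median log2 fold change was 0.27 at PPE week 1 relative to saline, 0.11 at PPE week 2 relative to saline and -0.09 between PPE week 2 and PPE week 1. Cycs, the gene of cytochrome c, averaged 30.0 ± 4.63 CPM at PPE week 1 and 42.8 ± 7.97 CPM in saline (edgeR log2 fold change -0.51 ± 0.24, adjusted p = 0.230). Apaf1 had 2 counts in its best-counted accession and Casp9 had 35. Of the 6 tested mitochondrial partners edgeR, DESeq2 and limma-voom called 0 in any comparison, with 1, 0 and 0 at an unadjusted p under 0.05 by edgeR. Among them Vdac2, whose protein holds BAK at the membrane, averaged 52.7 ± 9.26 CPM at PPE week 1 and 48.7 ± 10.6 CPM in saline (edgeR log2 fold change 0.11 ± 0.20, adjusted p = 0.819).

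Among the 5 inhibitors of apoptosis, which bind caspases or the death receptor complex, Birc3 rose at PPE week 1. It averaged 102 ± 9.88 CPM at PPE week 1 and 47.5 ± 9.11 CPM in saline, a log2 fold change of 1.11 ± 0.22 (edgeR adjusted p = 0.00684, n = 4 each). At PPE week 2 it averaged 60.8 ± 20.2 CPM, a log2 fold change of -0.75 ± 0.22 against PPE week 1 (edgeR adjusted p = 0.0474). The later difference lost its call on leaving out any 1 library other than saline replicate 4 and PPE week 2 replicates 2 and 4, with adjusted p-values of 0.0506 to 0.147 by edgeR. Xiap, the strongest caspase inhibitor of the family, averaged 2.08 ± 0.85 CPM at PPE week 1 and 0.86 ± 0.66 CPM in saline (edgeR log2 fold change 1.28 ± 1.14, adjusted p = 0.600).

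In the death receptor list edgeR called 1 of 10 tested genes higher for PPE week 1 against saline, where DESeq2 called 2 and limma-voom 1. Relative to saline, at PPE week 2, edgeR called 0 (1 at an unadjusted p under 0.05), DESeq2 1 and limma-voom 0. The gene that rose at PPE week 1 by edgeR was Tnfrsf1a, the main receptor for tumour necrosis factor, with 181 ± 22.0 CPM at PPE week 1 and 112 ± 6.27 CPM in saline, a log2 fold change of 0.69 ± 0.13 (edgeR adjusted p = 0.00455, n = 4 each). At PPE week 2 it averaged 119 ± 12.7 CPM, a log2 fold change of -0.61 ± 0.13 against PPE week 1 (edgeR adjusted p = 0.0102), a call lost without PPE week 1 replicate 2 (adjusted p = 0.0573). The median over the list was 0.18 for PPE week 1 against saline and -0.39 for PPE week 2 against PPE week 1. Fas, another death receptor gene, averaged 29.6 ± 1.91 CPM at PPE week 1 and 40.0 ± 16.4 CPM in saline (edgeR log2 fold change -0.44 ± 0.30, adjusted p = 0.468).

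Of 12 tested p53 response genes, edgeR called 0 for PPE week 1 against saline (4 at an unadjusted p under 0.05), DESeq2 3 and limma-voom 0, and the list's median was -0.29. At PPE week 2 edgeR called 1, DESeq2 2 and limma-voom 1 relative to saline, and 1, 2 and 3 relative to PPE week 1. Plk2, a kinase gene induced by p53, fell at PPE week 2, with 51.4 ± 4.67 CPM there and 97.1 ± 23.3 CPM in saline, a log2 fold change of -0.92 ± 0.18 (edgeR adjusted p = 0.0117, n = 4 each). Phlda3, a p53 target that restrains AKT signalling, averaged 56.3 ± 19.1 CPM at PPE week 2 and 29.3 ± 3.62 CPM at PPE week 1, a log2 fold change of 0.94 ± 0.24 (edgeR adjusted p = 0.0267). That call was lost without any 1 of the 4 PPE week 1 libraries and without PPE week 2 replicate 1 or 3, with adjusted p-values of 0.0501 to 0.0937 by edgeR. Mdm2 and Cdkn1a, the standard p53 targets, had edgeR log2 fold changes of -0.15 ± 0.80 (adjusted p = 0.948) and -0.32 ± 1.11 (adjusted p = 0.920) for PPE week 1 against saline. Both values rest on few reads, with 415 counts for Mdm2 and 198 for Cdkn1a over all libraries. Trp53 itself had 18 counts in its best-counted accession.

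The lists of stress and FoxO inducers of BH3-only genes (7 tested) and of MCL1 turnover (5 tested) had 0 calls by edgeR in each comparison, with medians at PPE week 1 relative to saline of -0.03 and -0.31. At an unadjusted p under 0.05 edgeR gave 0, 0 and 2 genes of the stress and FoxO list and 2, 1 and 1 of the MCL1 turnover list, of which DESeq2 and limma-voom each called 1 at PPE week 1. Each of these lists is short, and their edgeR counts are to be read beside the 7.89% of all features that edgeR called for PPE week 1 against saline. DESeq2 called more features than edgeR in each comparison.

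**Figure D5:**
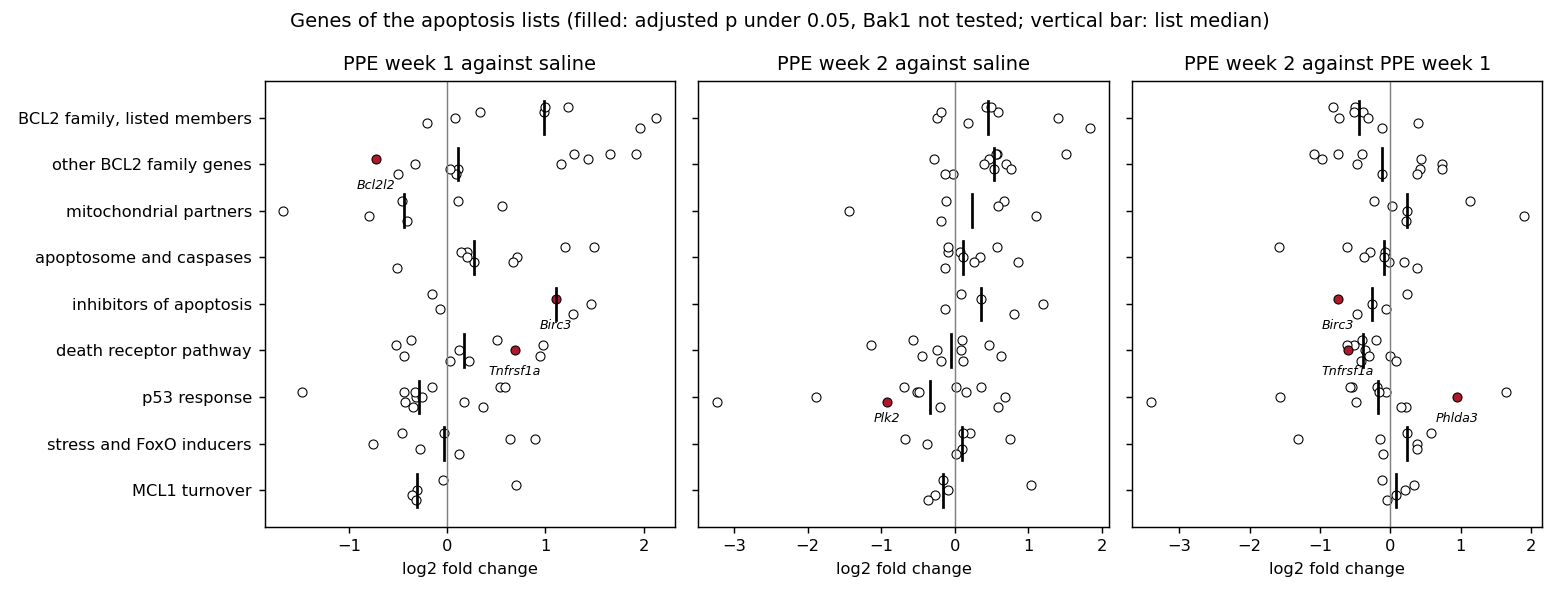
Log2 fold changes in the 3 comparisons of the genes of 9 apoptosis lists that passed the filter on low counts. Each gene is 1 point and the list median is a vertical bar. Bak1 is drawn unfilled because it was described without a test, and it enters the median of its list. Filled and named points passed the edgeR test at an adjusted p under 0.05: Bcl2l2, Birc3 and Tnfrsf1a for PPE week 1 against saline, Plk2 for PPE week 2 against saline, and Birc3, Tnfrsf1a and Phlda3 for PPE week 2 against PPE week 1.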

How the data were processed

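RNA was measured in 12 libraries, each from a separate mouse per the labels' protocols: TRIzol extraction, column purification and an Illumina TruSeq v2 kit, which does not record strand. Tools named per the submitters' processing notes are bcl2fastq and DESeq2, with the build mm10. No aligner, counter or annotation is given in the sources used here. Deposited were the authors' raw counts for 34755 RefSeq accessions and 2 tables of their own comparisons, with log2 fold changes, p-values and adjusted p-values. RefSeq and GENCODE tables named all but 139 accessions.

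From the counts, edgeR 4.0.16 in R 4.3.3 (filterByExpr, TMM, robust quasi-likelihood fit, 1 mean per group over all 12 libraries, two-sided) tested 12756 accessions, with Benjamini-Hochberg adjustment over all of them and 0.05 as the threshold. The procedure was tested on simulated data with the same spread for every gene, where DESeq2 made more false calls than its threshold allows. DESeq2 1.42.0 and limma 3.58.1 were alternatives, as were other scalings, filters and sets of libraries. Correlations used log2 CPM with a prior count of 2. Own bases of an accession come from GENCODE transcripts matched to RefSeq. The ribosomal RNA precursor stayed in the library sizes.

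The members and lists were chosen with earlier results of these data known. The text names all members, the called genes of each list (at most the 3 with the smallest p per comparison), 14 further apoptosis genes whether called or not, and the 5 genes most like and most unlike Bak1. Some genes that this rule names are not reported here.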

Additional observations from a re-analysis of the deposited data

Results flagged for a closer look

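Among 39 groups of 4 libraries examined for a library far from the others, 3 were flagged (chance flags about 1 in 20 groups). For Bcl2l1 the second PPE week 1 library, with 1 count, stood below the other 3 by 0.937 of the group's range, and the third saline library, with 8 counts while the others had 0, stood above them by 1, the whole range. The first PPE week 1 library had the highest ratio of Pmaip1 to Mcl1 counts, 0.0901, above the other 3 by 0.884 of the range.

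The PPE week 2 and PPE week 1 groups differed in 3 genes of the apoptosis lists by edgeR's test. Both are set against the same day 7 saline group, so that enzyme effect and time after surgery cannot be told apart. PPE week 2 minus PPE week 1 was -0.751 on the log2 scale for Birc3 (adjusted p = 0.0474), -0.606 for Tnfrsf1a (adjusted p = 0.0102) and 0.939 for Phlda3 (adjusted p = 0.0267). All 3 calls were lost with the share of the ribosomal RNA precursor as a covariate (adjusted p = 0.287 for Birc3, 0.206 for Tnfrsf1a and 0.166 for Phlda3 by edgeR). Over all features 54 were then called higher and 15 lower, against 481 and 360 without the covariate. The call of Birc3 was also lost under the replicate block (0.0695) and on leaving out any 1 of 9 libraries, that of Phlda3 on leaving out 6 and that of Tnfrsf1a on leaving out 1.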

How the results depend on the processing

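The count of members called for PPE week 1 against saline was 0, and it became 1 with DESeq2, 2 when libraries were scaled by size only, 2 with only the 8 libraries compared, 1 with halved counts, and 0 to 2 when 1 library was left out. The genes were Pmaip1 throughout and Bax where the count was 2. For PPE week 2 against PPE week 1 it was 0 to 1 over the left-out libraries, and for PPE week 2 against saline it was 0 under each alternative. The replicate block gave 0 members called in each comparison; same-numbered libraries of different groups had correlations of -0.088 to 0.035, so that the numbers did not pair the mice. Under the block Birc3 lost its call for PPE week 2 against PPE week 1 (edgeR adjusted p = 0.0695).

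Scaling by library size only shifted the median log2 fold change of all features to 0.28, 0.54 and 0.23 for PPE week 1 and PPE week 2 relative to saline and between the PPE weeks, and the calls of the first to 1034 higher and 195 lower, against 508 and 499. The log2 fold changes of Bak1 were then 1.49, 0.89 and -0.59. That scaling reversed Bcl2 for PPE week 1 against saline (0.068), Mcl1 (0.30) and Bbc3 (0.29) for PPE week 2 against saline, and Bcl2l1 for PPE week 2 against PPE week 1 (0.067), and it ended the calls of Bcl2l2 and Plk2 and of Birc3 and Tnfrsf1a between the PPE weeks. With the share of the ribosomal RNA precursor as a covariate, Bcl2 (-0.18) and Bbc3 (0.47) for PPE week 2 against saline and Bcl2l1 for PPE week 2 against PPE week 1 (0.30) were reversed, and the 7 calls of the apoptosis lists were lost. Over all features the calls for PPE week 1 against saline likewise fell, to 23 higher and 59 lower. With only the 8 libraries compared, edgeR no longer called Plk2 (adjusted p = 0.0578) or Birc3 between the PPE weeks (adjusted p = 0.0865). That share differed between the groups, and the 2 cannot be told apart in full. With 1 library left out, Bbc3 ran from -0.17 to 0.34 for PPE week 1 against saline and from -0.50 to 0.015 for PPE week 2 against saline, and Bcl2l1 from -1.35 to 0.28 for PPE week 2 against PPE week 1. The cause of these changes was not tested. For Bcl2l1, Bcl2l11 and Bad a few counts set each value.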
